A study of Mus musculus with 6 samples.

Results

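Clone B04 is a single cell-derived line of the mouse colon carcinoma CT26 that was isolated as resistant to immune checkpoint blockade, and its transcription is described here against the parental line. The 4 libraries titled for these lines, 2 for clone B04 and 2 for the parental line, were taken from the 6 libraries of the series, and all expressed genes were examined. The parental libraries came from bulk CT26 cells that carried lentiviral barcodes, were grown as tumors in mice and were put back into culture under puromycin. Clone B04 came from the same barcoded population. Its barcode had become enriched in tumors of mice given anti-PD1 and anti-CTLA4 antibodies, which release T cells from inhibitory receptors. Both lines derive from BALB/c mice. The sample titles call the RNA tumor derived, whereas the study's methods describe RNA of cultured cells in duplicate, and neither source says whether replicates A and B were separate cultures, so the p-values measure the spread between these libraries, which may be technical. B04 is 1 clone set against a mixed population.

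CT26 arose in a chemically treated mouse and is an undifferentiated carcinoma. A bulk tumor line holds cells in many transcriptional and chromosomal states, of which a single-cell clone samples one. The programs below are those of cell division, stress defense, lipid desaturation, secreted growth control, protein folding and degradation, whose members act as stable groups in many cell types.

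Library totals in these 4 libraries were between 20978737 and 23472012 expected counts, and between 10970 and 11208 genes reached 1 TPM, a transcript level scaled by length and library. Fragments were of like length in both parental libraries and B04 replicate A and were shorter in B04 replicate B. The median gap between gene length and effective length, taken over long genes only, was 225.2 bases in B04 replicate B against 271.8 to 277.3 bases. Counts varied more between lines than within them, with a chi-square per degree of freedom of 32.16 between parental replicate A and B04 replicate A, 6.81 within the parental pair and 6.17 within the B04 pair. The labelled cell type was checked on marker genes. The 8 mesenchymal and general tumor-cell markers of CT26 summed to between 17698.58 and 19474.72 TPM. The 12 colon epithelial markers summed to between 23.24 and 26.06 TPM, nearly all from the keratins Krt18 (12.31 to 16.09 TPM) and Krt20 (9.01 to 9.62 TPM), while Epcam, Cdh1, Krt19 and Vil1 were at or near 0 in both lines. All 10 leukocyte markers were under 1 TPM in every library, with a sum of 0.83 to 1.33 TPM. The 11 T and NK cell markers summed to between 2.3 and 3.6 TPM. The 9 fibroblast markers summed to between 348.53 and 376.54 TPM, mostly from Col1a2 (316.39 to 348.06 TPM). Of these 9, 1 was called higher and 3 lower in B04, and the part of such cells was not tested. The 10 macrophage and monocyte markers summed to 23.51 and 25.5 TPM in parental A and B. In B04 A and B the sum was 34.02 and 33.63 TPM. Nearly all of it came from Cd68 and Cd14, and the other 8 markers were under 1 TPM in every library. Cd14 was called higher in B04 (adjusted p = 0.000215), while Cd68 did not pass the test (adjusted p = 0.994). The part of such cells in the results was not tested. In bulk RNA, fewer cells of a type and less RNA per cell cannot be told apart.

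Expected counts were normalized by size factors, so each level below is a normalized count, and values are given in the order replicate A, replicate B (n = 2 libraries per line). A value in parentheses with ± is a log2 fold change of B04 over parental with its standard error (SE). A gene was called at an adjusted p under 0.05 in a DESeq2 Wald test across all 13218 genes tested. Of these, 24.1% were called, 11.2% higher and 12.9% lower in B04, and these shares are the background for every gene list below. The median log2 fold change of all genes tested was 0.002. Of the 3181 called genes 46.4% were higher, and this share was 67.4% of 1964 called genes when limma was run on log2(TPM + 1). With B04 replicate B left out, 14.0% of 12550 genes were called (1755 genes), and 1865 to 2019 genes were called when one of the other 3 libraries was left out. A fold of at least 2 was reached by 275 called genes that were higher and 196 that were lower. In 3179 of the 3181 called genes the libraries of the 2 lines did not overlap. A lack of overlap therefore sets no called gene below apart from the others.

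The largest rises in B04 among abundant protein-coding genes were spread over cell surface, complement and detoxifying genes. Arhgap30 (chr1:171388954-171410298, plus strand), a GTPase-activating protein usually expressed in blood cells, had counts of 0 and 2.8 in the parental line and 2911 and 2806 in B04. It was therefore at least 1008.8-fold higher in B04, taking 3 counts per library as the floor for the parental line (adjusted p = 1.36e-36). Pax5, the B-cell lineage factor, rose from 10.5 and 5.6 to 308 and 293 (log2 fold change 5.23, SE 0.44, adjusted p = 1.41e-30). The B-cell genes Cd79b and Ms4a1 were at 0 in all 4 libraries, while the B-cell marker list summed to 10.07 to 10.38 TPM in the parental line and 15.54 to 16.36 TPM in B04. Nearly all of that sum was Blnk, an adaptor of B-cell signaling, which was called higher (adjusted p = 0.000185), and the other 10 of the 11 markers were under 1 TPM in every library. Cd79a, a chain of the B-cell receptor, had 7.6 and 13.1 against 1.8 and 2.0 counts and did not pass the test.

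Ces2g, a carboxylesterase, was at 14.3 and 16.8 in the parental line and 369 and 404 in B04 (log2 fold change 4.63, SE 0.34, adjusted p = 1.83e-39). Aldh3a1, an aldehyde dehydrogenase that clears aldehydes of lipid peroxidation, was at 254 and 259 against 1112 and 1135 (log2 fold change 2.13, SE 0.13, adjusted p = 1.14e-61). Both B04 libraries lay far above both parental libraries for these enzymes. The complement genes Serping1, Cfb and C1s1 rose. Serping1, the inhibitor of the C1 complex, went from 26.7 and 28.1 to 208 and 218 (log2 fold change 2.96, SE 0.30, adjusted p = 2.7e-20), and Cfb, factor B of the alternative pathway, from 95.4 and 78.6 to 369 and 352 (log2 fold change 2.05, SE 0.24, adjusted p = 2.29e-15). C1s1, a protease of the C1 complex, went from 85.9 and 115 to 457 and 411 (log2 fold change 2.11, SE 0.21, adjusted p = 1.21e-20). Cfb and C1s1 each have a near-identical copy in the annotation, so RSEM could divide their reads. Tgfb3, a TGF-beta ligand, was at 295 and 291 against 1579.7 and 1503 (log2 fold change 2.40, SE 0.13, adjusted p = 7.23e-76). Smaller counts with like folds were seen for Padi1, which converts arginine to citrulline (2.51 ± 0.33), and Cytip, a cytohesin-binding protein (2.42 ± 0.25). The other large rises were Tnxb, a tenascin of the matrix (2.18 ± 0.14), Cd74, the invariant chain of class II molecules (3.99-fold higher), and Gpsm3, a modulator of G-protein signaling (1.96 ± 0.26). Tnxb, Cfb and Gpsm3 lie in the same stretch of chromosome 17.

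The largest falls held genes of the cytoskeleton, growth control and mitochondria. Marcks, a substrate of protein kinase C that binds actin at the membrane, was at 258 and 287 in the parental line and 0.9 and 4.1 in B04 (log2 fold change -6.82, SE 0.71, adjusted p = 7.56e-20). Miga1, which promotes fusion of mitochondria, was at 412 and 406 against 21.9 and 18.3 (log2 fold change -4.34, SE 0.29, adjusted p = 1.58e-48). Ppef1, a calcium-binding phosphatase, was at 583 and 543 against 30.1 and 25.4 (log2 fold change -4.34, SE 0.23, adjusted p = 2.3e-79). For all 3 both B04 libraries were far below both parental libraries in counts. In TPM, Ppef1 was at 18.45, 16.38, 4.38 and 2.25 in parental A, parental B, B04 A and B04 B, a smaller fold than in counts.

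Esm1, a secreted proteoglycan better known from endothelium, was far more abundant and fell from 3989 and 4340.5 to 488 and 525 (log2 fold change -3.04, SE 0.098, adjusted p = 3.86e-207). The endothelial marker list reached no more than 0.17 TPM in sum. Tmsb4x, thymosin beta 4, which holds monomeric actin, fell from 1718 and 1896 to 282 and 285 (log2 fold change -2.67, SE 0.12, adjusted p = 5.51e-104). Igf2r, the receptor that carries lysosomal enzymes and clears IGF2, fell from 1149 and 1014 to 218 and 194 (log2 fold change -2.39, SE 0.15, adjusted p = 6.71e-52). The lowest parental library was above the highest B04 library by a wide margin for each. Sox4, a transcription factor, fell 5.07-fold, and Thbs2, a matrix thrombospondin, 4.29-fold. Ptprn, a phosphatase-like protein of secretory granules, fell 3.59-fold from 3422 and 3618 to 949 and 1013 (log2 fold change -1.84, SE 0.084, adjusted p = 4.21e-103). The remaining genes of this kind were Dynap (-2.24 ± 0.28), the mitochondrial carrier Ucp2 (-1.98 ± 0.20), the TGF-beta feedback gene Pmepa1 (-1.97 ± 0.24), S100a7a (-1.81 ± 0.26), the ERK phosphatase Dusp5 (-1.75 ± 0.14) and the Rac exchange factor Tiam1 (-1.67 ± 0.23).

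**Figure D1:**
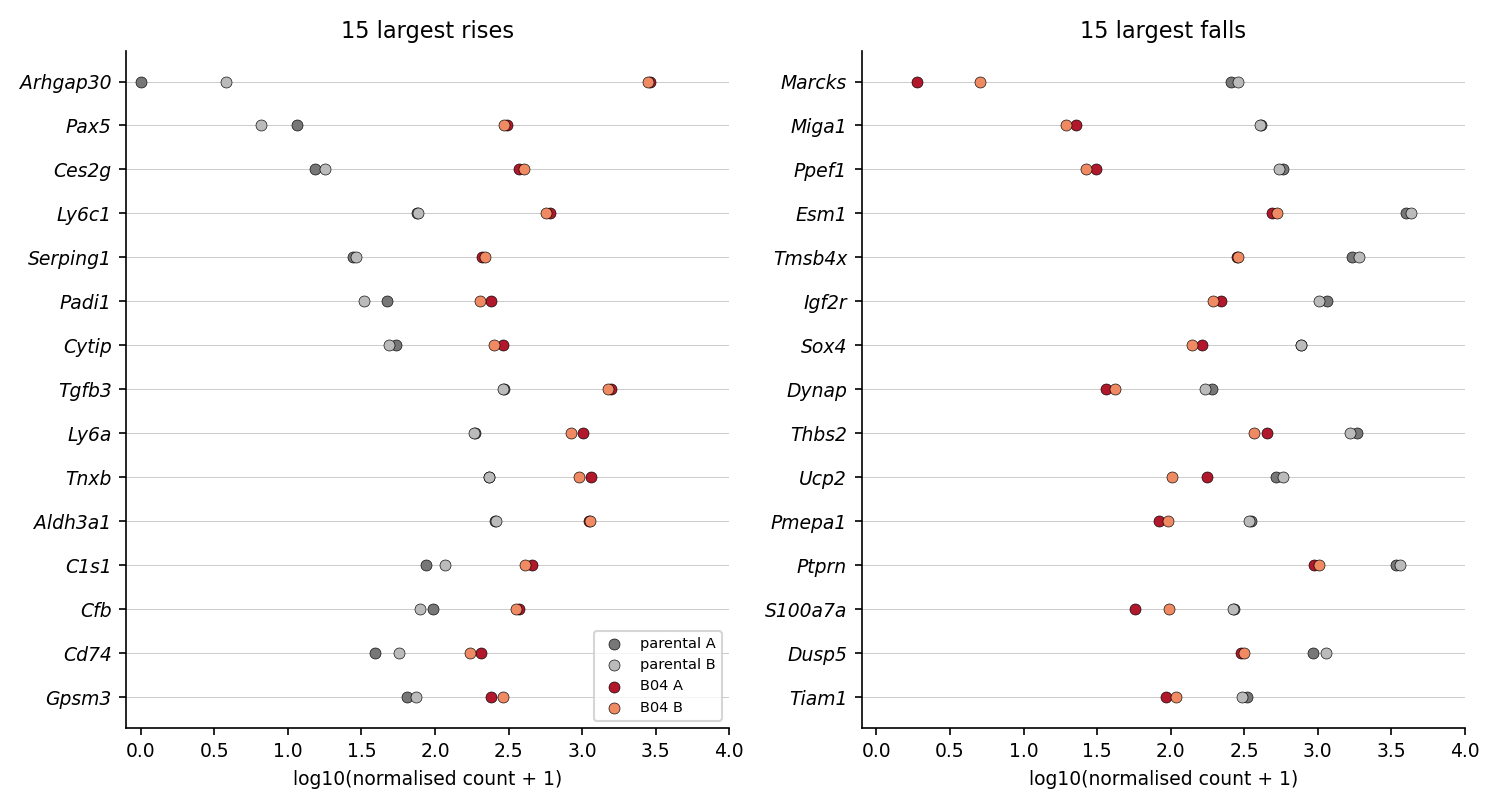
Normalized counts of the 15 largest rises and 15 largest falls in B04, on a log10(count + 1) axis, with 1 point per library (parental A and B, B04 A and B). For every gene both B04 points lie on one side of both parental points, as the choice of these genes required. Arhgap30 goes from at most 2.8 to at least 2806.

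Some genes were at the floor, at most 3 counts per library, in one line. Among the called genes the parental line was at the floor for 27 and B04 for 49. The genes with a mean of at least 50 in the other line are named here after their values were seen. Elovl7, an elongase of long fatty acids, had 0 and 0 counts in the parental line and 123 and 138 in B04, at least 46.1-fold higher. Ly6c2, a near copy of Ly6c1, had 1.9 and 2.8 against 39.2 and 69.2, at least 19.1-fold higher. Apart from Arhgap30, the remaining genes of this kind were the pseudogenes Gm10259 and Rpl30-ps9, which are taken up with the replicate differences.

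The reverse, with B04 at the floor and a parental mean of at least 50, held for 10 genes. Ank2, an ankyrin of the membrane skeleton, had 161 and 171 counts in the parental line and 0 and 0 in B04, at least 57.4-fold lower in B04. Dapk1, a death-associated kinase, had 139 and 159.9 against 0 and 0, at least 51.7-fold lower, and Anks6, a ciliary ankyrin protein, had 201 and 185 against 0.9 and 0, at least 66.7-fold lower. The lower bounds were 32-fold for the glycosyltransferase B3galnt1, 26.1-fold for the kinase Pak3, 30.2-fold for the Wnt antagonist Dkk2, 19.6-fold for the laminin chain Lama2, 18.6-fold for the transcription factor Pax3, 19.3-fold for Ostn and 19.8-fold for the long noncoding RNA 1700048O20Rik. Of the 10 genes, Ank2, B3galnt1 and Dkk2 lie on chromosome 3. Of the 49 called genes at the floor in B04, 30 were also at the floor in the other resistant clone of the series, as were 7 of the 27 genes at the floor in the parental line. The share of all genes at the floor in that clone was not taken, so these counts are not read as a shared trait.

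Of 62 gene lists written for programs other than interferon, DNA replication, cholesterol and ribosome genes, the list of mitosis genes had the greatest share called among the 39 lists with at least 30 genes tested. Each list is described by its counts and median without a test, and its share is read beside the background. Further members are named for their role after their values were seen.

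**Figure D2:**
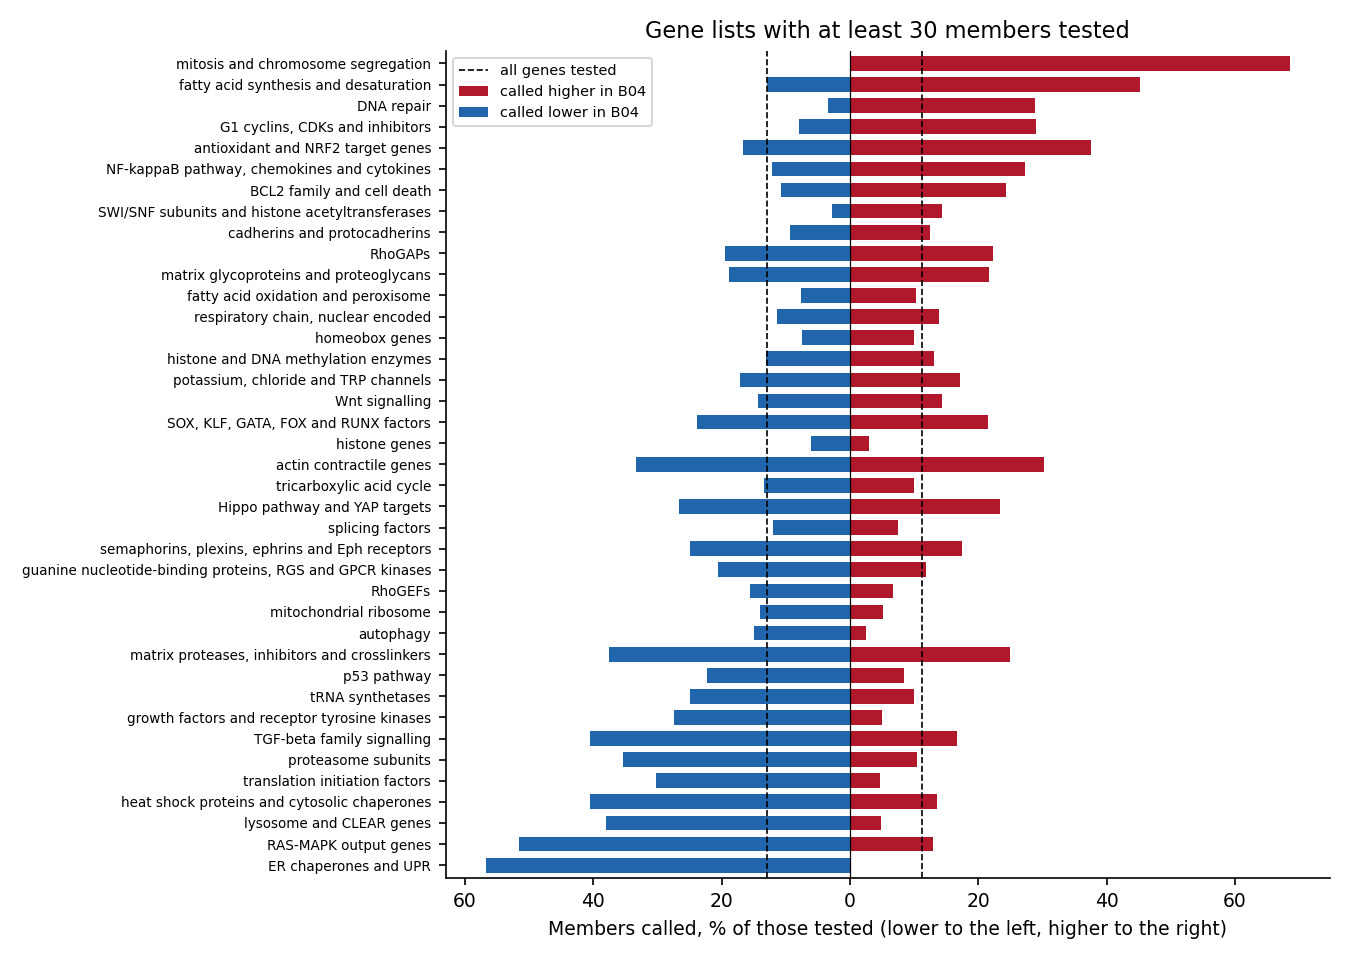
Share of tested members called higher (bars to the right) and lower (bars to the left) in B04, in percent, for the 39 lists with at least 30 members tested. Dashed lines mark the 11.2% and 12.9% of all genes tested. Mitosis genes reach furthest to the right, with 50 of 73 members, and endoplasmic reticulum chaperones and RAS-MAPK output genes reach furthest to the left.

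Genes of mitosis and chromosome segregation were higher in B04 by modest folds. Of 73 members tested 50 were called higher and 0 lower, and the median log2 fold change was 0.32. At an unadjusted p under 0.05 DESeq2 gave 57 higher and 0 lower, and edgeR called 53 and 0. The count was 43 with limma on log2(TPM + 1) and between 30 and 37 when single libraries were left out. Cenpm, a centromere protein, rose from 629 and 662 to 1316 and 1405 (log2 fold change 1.07, SE 0.11, adjusted p = 1.63e-21). Kif20a, a kinesin of the central spindle, rose from 2531 and 2494 to 4208 and 4086 (log2 fold change 0.72, SE 0.066, adjusted p = 1e-25), and Aurkb, the kinase of the chromosomal passenger complex, from 2349.6 and 2446 to 3551 and 3684 (log2 fold change 0.59, SE 0.074, adjusted p = 6.3e-14). In each the lowest B04 library was well above the highest parental library. Changes were smaller for Cdc20, the activator of the anaphase-promoting complex (0.45 ± 0.065), Plk1, the polo-like kinase (0.43 ± 0.079), and Cdk1, the mitotic kinase (0.26 ± 0.074), and the call for Cdk1 was lost without B04 replicate B. The proliferation marker Mki67 rose by 0.56 ± 0.089, the condensin subunit Ncapd2 by 0.55 ± 0.069 and the spindle kinesin Kif11 by 0.56 ± 0.073 on the log2 scale. Ccnb1, the partner of Cdk1, had a log2 fold change of 0.12 ± 0.063, and it did not pass the test (adjusted p = 0.154).

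Mitotic genes often carry the cell cycle homology region (CHR), TTTGAA, near their start sites. RefSeq promoter windows of 250 bases before to 50 bases after the start (GRCm38.p6) were found for 62 of the 73 genes, and 43 of these (69.4%) held TTTGAA on either strand, against 20.23% of 27025 genes with a window. Among the 40 called genes with a window 30 (75%) held it, and among the 22 other members with a window 13 did. The CCAAT box, also a common element of these promoters, was present in 45 of 62 windows (72.6%) and in 41.06% of all. It was in 27 of the 40 called genes (67.5%) and in 18 of the 22 others. A match describes letters only, not a bound site. Stretches from 3 called genes are printed with the CHR in capitals, since they show an element that most of these promoters hold. They are written 5′ to 3′ along the strand of the gene, and a reverse-strand match reads TTCAAA.
Ncapd2 (chr6:125191684-125191729, minus strand): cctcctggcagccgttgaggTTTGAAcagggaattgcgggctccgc
Kif11 (chr19:37376343-37376381, plus strand): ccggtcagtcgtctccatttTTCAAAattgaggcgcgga
Cdc20 (chr4:118437344-118437381, minus strand): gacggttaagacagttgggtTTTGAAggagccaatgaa

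DNA repair genes were likewise more often higher, with 17 of 59 called higher and 2 lower and a median of 0.19. Fanci, of the Fanconi anemia pathway, rose from 364 and 292 to 614 and 600.5 (log2 fold change 0.89, SE 0.15, adjusted p = 1.7e-07), and Brca2, which acts in homologous recombination, from 1146 and 1048 to 1884 and 1614 (log2 fold change 0.67, SE 0.11, adjusted p = 2.42e-08). The exception was large. Ercc1, a subunit of the nuclease of nucleotide excision repair, fell from 3476 and 3640.0 to 1334 and 1443 (log2 fold change -1.36, SE 0.076, adjusted p = 1.79e-67), a fitted fold of 2.56, and both B04 libraries lay below both parental libraries. The other fall was Xrcc5, the Ku80 subunit (-0.33 ± 0.094). With single libraries left out, 8 to 13 members were called higher.

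Among G1 cyclins, CDKs and their inhibitors, 11 of 38 were called higher and 3 lower, with a median of 0.10. Without single libraries 6 to 9 were called higher and 0 to 3 lower, with 9 and 0 without B04 replicate B. The higher members were led by MAX partners that oppose MYC: Mxd3 rose from 263 and 289 to 691 and 677 (log2 fold change 1.31, SE 0.14, adjusted p = 1.8e-17), and Mxi1 and Mxd4 by 0.81 and 0.62 on the log2 scale. Cdkn2c, an inhibitor of the G1 kinases, rose by 0.68 ± 0.097 on that scale. Myc itself was at 3560.1 and 3749 against 3907 and 3833 and did not pass the test (adjusted p = 0.423).

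Antioxidant genes and targets of NRF2, the factor that responds to oxidants, were above the background in the higher direction. Of 48 tested, 18 were called higher and 8 lower, with a median of 0.18, and 18 and 7 were called by limma on log2(TPM + 1). Gstm1, a glutathione transferase, rose from 562 and 573 to 2020.2 and 1857 (log2 fold change 1.77, SE 0.098, adjusted p = 1.75e-69). Its neighbor Gstm2 rose from 1075 and 1093 to 1912 and 1724 (log2 fold change 0.75, SE 0.089, adjusted p = 3.68e-15). Glutathione synthesis was represented by Gclm, the modifier subunit of its rate-limiting enzyme, which rose from 2546 and 2537 to 3942 and 3622 (log2 fold change 0.57, SE 0.074, adjusted p = 6.57e-13). All 3 lie on chromosome 3, where the median protein-coding gene was lower in B04. Gsr, which regenerates reduced glutathione (0.57 ± 0.094), and Srxn1, which restores peroxiredoxins (0.46 ± 0.076), also rose. The falls included Hmox1, heme oxygenase 1 (-0.53 ± 0.075), and Gpx8 (-0.61 ± 0.11). The NRF2 gene Nfe2l2 was at 2704 and 2558 against 2803 and 2799 (adjusted p = 0.411), and its classical targets Nqo1 (0.59 ± 0.26), Slc7a11 (0.05 ± 0.11) and Txnrd1 (0.02 ± 0.057) did not pass the test.

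Iron and heme genes overlapped with that list in Fth1 and Hmox1. Of 27 genes 9 were called higher (5 to 7 without single libraries) and 1 lower, with a median of 0.11. Fth1, the heavy chain of the iron store ferritin, rose from 58830.0 and 65284 to 91107 and 91721 (log2 fold change 0.56, SE 0.054, adjusted p = 1.14e-22), and the light chain Ftl1 by 0.26 ± 0.050 on the log2 scale. Steap2, a metalloreductase, rose from 7029 and 6808 to 9768 and 9953 (log2 fold change 0.51, SE 0.056, adjusted p = 9.97e-18).

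Fatty acid synthesis and desaturation was split by step. Of 31 genes tested, 14 were called higher (9 to 12 without single libraries) and 4 lower, with a median of 0.23. The desaturases rose: Fads2 went from 1706 and 1642 to 2811 and 2854 (log2 fold change 0.76, SE 0.078, adjusted p = 2.52e-20), Scd1 from 13264 and 12302 to 18171 and 18932 (log2 fold change 0.54, SE 0.056, adjusted p = 8.63e-20) and Scd2 from 24535 and 24610.3 to 34158 and 34010.3 (log2 fold change 0.47, SE 0.054, adjusted p = 1.06e-16). Both B04 libraries were above both parental libraries for each. The elongase Elovl6 followed, at 0.40 ± 0.089, beside the Elovl7 difference given above. Fasn, which makes palmitate, was at 5022 and 4724 against 5076 and 4748 (adjusted p = 0.939), and Acaca (0.05 ± 0.088) and Acly (0.14 ± 0.061), which supply it, did not pass the test. The 4 falls were Acsl1 (-0.31 on the log2 scale), Acsl4 (-0.27), Agpat1 (-0.24) and Fads3 (-0.18), and each lost its call without B04 replicate B.

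Members of the Ly6/uPAR family, small surface or secreted proteins held by disulfide bonds, differed most for the size of their list. Of 9 tested, 7 were called higher and 1 lower with a median of 1.37, and the counts were the same without any single library and by limma on log2(TPM + 1). Ly6a, the stem-cell antigen Sca-1 (chr15:74994877-74998031, minus strand), was at 185 and 182 against 1007 and 842 (log2 fold change 2.33, SE 0.15, adjusted p = 7.69e-54). Ly6c1 (chr15:75044018-75048830, minus strand) was at 74.4 and 75.8 against 607 and 571 (log2 fold change 2.97, SE 0.20, adjusted p = 1.75e-47), with reads that may be shared with its near-identical copy Ly6c2. Ly6e, a broadly expressed member, was at 15014 and 15420.5 against 20873 and 21091 (log2 fold change 0.46, SE 0.049, adjusted p = 3.06e-19). The secreted member Slurp1 rose from 4.8 and 3.7 to 63.8 and 66.2 (log2 fold change 3.93, SE 0.69, adjusted p = 3.28e-07), and Lynx1, a modulator of nicotinic receptors, from 224 and 247 to 502 and 499.8 (log2 fold change 1.09, SE 0.16, adjusted p = 2.35e-10). Of the 7 higher genes 6 lie on chromosome 15, where 33.4% of all protein-coding genes tested were called higher, and the exception was Lypd5 on chromosome 7 (1.37 ± 0.18). The fall was also on chromosome 7. Plaur, the urokinase receptor, went from 2848 and 3128 to 1158 and 1310.0 (log2 fold change -1.28, SE 0.086, adjusted p = 4.53e-47).

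Other surface genes moved in both directions. Among 28 immune checkpoint and regulatory genes, 5 were called higher and 8 lower (2 to 4 and 5 to 7 without single libraries), with a median of -0.11 that was -0.01 by limma on log2(TPM + 1). Pvr, a ligand of the receptors TIGIT and CD226, fell from 4851 and 5093 to 2298 and 2297 (log2 fold change -1.11, SE 0.065, adjusted p = 3.16e-62). Cd44, the hyaluronan receptor, fell by 0.70 and Ptgs2, the inducible cyclooxygenase, by 0.72 on the log2 scale. Cd274, which encodes PD-L1, was at 184 and 138 against 129.5 and 115 and did not pass the test (adjusted p = 0.29). The membrane proteins Tmem176b and Tmem176a, whose genes overlap on chromosome 6 so that shared reads may be split, rose from 1959 and 1983 to 4069.6 and 4299.5 (log2 fold change 1.09, SE 0.073, adjusted p = 4.53e-47) and from 1269 and 1262 to 2725 and 2797 (log2 fold change 1.13, SE 0.082, adjusted p = 1.52e-40).

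Glucocorticoid-response genes were more often higher, with 9 of 20 called higher and 1 lower and a median of 0.23, and 5 to 8 were called higher when single libraries were left out. Nr3c1, the receptor, was at 2586 and 2366 against 3637 and 3463 (log2 fold change 0.52, SE 0.074, adjusted p = 6.81e-11), and Anxa1, an anti-inflammatory target, at 5914 and 5908 against 8369.9 and 8405 (log2 fold change 0.51, SE 0.055, adjusted p = 3e-18). Fkbp5, a cochaperone induced by the receptor, rose from 1789.6 and 1684 to 2348 and 2470.4 (log2 fold change 0.47, SE 0.080, adjusted p = 9.95e-08). Nfkbia, the inhibitor of NF-kappaB, rose by 0.75 ± 0.23 on the log2 scale. Errfi1, a feedback inhibitor of EGF receptors, fell from 3451 and 3522 to 1426 and 1369 (log2 fold change -1.32, SE 0.092, adjusted p = 5.31e-44). Tsc22d3, which encodes the classical target GILZ, was at 370.1 and 427 against 388 and 453 and did not pass the test (adjusted p = 0.82).

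In the TGF-beta family, ligands, antagonists and targets did not move as one. Of 42 genes tested, 7 were called higher and 17 lower (4 to 6 and 12 to 13 without single libraries), with a median of -0.09 that was -0.00 by limma on log2(TPM + 1), where 6 and 10 were called. Among ligands, Tgfb3 rose as given above, whereas Inhba, which forms activin A, fell from 947 and 863 to 419.5 and 439.7 (log2 fold change -1.08, SE 0.13, adjusted p = 9.67e-16). Bmp2 fell from 95.4 and 127 to 9.1 and 7.1 (log2 fold change -3.77, SE 0.48, adjusted p = 3.59e-13). Tgfb1 (0.02 ± 0.13) and the receptors Tgfbr1 (0.01 ± 0.14) and Tgfbr2 (0.20 ± 0.11) did not pass the test.

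Secreted antagonists of BMP and activin fell, with Grem1 at 5198 and 4889 against 3176 and 3165 (log2 fold change -0.67, SE 0.062, adjusted p = 4.26e-25), Fst at -1.16 ± 0.21 and Fstl3 at -0.98 ± 0.16. The TGF-beta feedback genes Skil and Smad7 fell by 0.91 and 0.77 on the log2 scale. Id genes, which respond to BMP, went the other way. Id3 rose from 90.6 and 97.3 to 221 and 262 (log2 fold change 1.36, SE 0.24, adjusted p = 2.92e-07) and Id1 from 225 and 239 to 414 and 413 (log2 fold change 0.83, SE 0.17, adjusted p = 1.08e-05).

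Growth factors and receptor tyrosine kinases were called lower in 11 of 40 cases and higher in 2, with a median of -0.01. Ligands of the EGF receptor family fell. Ereg, epiregulin, was at 1272 and 1148 against 566 and 547 (log2 fold change -1.12, SE 0.11, adjusted p = 2.3e-22), and Hbegf, Areg and Nrg1 fell by 0.81, 0.70 and 0.66 on the log2 scale. The receptor Fgfr1 fell from 574 and 629 to 243 and 239 (log2 fold change -1.32, SE 0.16, adjusted p = 5.98e-14). The 2 rises were Igfbp4, an IGF-binding protein, from 4649.5 and 5200.0 to 8057 and 8199 (log2 fold change 0.72, SE 0.068, adjusted p = 5.5e-24), and the receptor Pdgfrb (0.50 ± 0.11).

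Output genes of the RAS-MAPK pathway were the list with the greatest share called lower among lists with at least 30 genes tested, apart from endoplasmic reticulum chaperones. Of 31 tested, 16 were called lower and 4 higher, with a median of -0.39. Limma on log2(TPM + 1) called 13 lower and 2 higher with a median of -0.31, and 13 to 14 were called lower when single libraries were left out. Hmga2, an architectural chromatin protein of RAS-transformed cells, fell from 9358 and 8731 to 2885 and 3062 (log2 fold change -1.60, SE 0.063, adjusted p = 1.97e-141). Its relative Hmga1 fell from 28249 and 29476 to 16245 and 16718 (log2 fold change -0.81, SE 0.051, adjusted p = 1.01e-53). Fosl1, the AP-1 subunit FRA1, fell from 2418 and 2575 to 1077 and 1117 (log2 fold change -1.19, SE 0.082, adjusted p = 1e-44). These abundant genes were each lower in both B04 libraries than in either parental library.

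Feedback regulators of ERK were lower too, with Dusp5 as given above, Dusp6 at 2684 and 2834 against 1675 and 1812 (log2 fold change -0.66, SE 0.078, adjusted p = 1.94e-15) and Spry4 at -0.43 ± 0.079. The immediate early genes Jun (-0.75 ± 0.13), Junb (-0.66 ± 0.092), Fosb (-0.94 ± 0.23) and Egr1 (-0.47 ± 0.10) fell. The 4 rises were Jund (0.38 ± 0.081) and the ETS factors Etv1, Etv4 and Etv5, which reached at most 0.46 on the log2 scale, and Etv4 and Etv5 lost their calls without B04 replicate B. The AP-1 site TGANTCA was in 0 of the 23 promoter windows found for these genes and in those of 8.97% of all 27025 genes with a window.

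Endoplasmic reticulum chaperones and genes of the unfolded protein response were lower by small, like amounts. This response lets sensors in the membrane of the endoplasmic reticulum raise the level of chaperones. Of 37 tested, 0 were called higher and 21 lower, with a median of -0.22. At an unadjusted p under 0.05 DESeq2 gave 3 higher and 25 lower, edgeR called 2 and 24, and 14 to 16 were called lower when single libraries were left out. Limma on log2(TPM + 1) called 6 lower and 1 higher with a median of -0.13. Hspa5, the chaperone BiP, fell from 41749.6 and 41333 to 30563 and 30685 (log2 fold change -0.44, SE 0.047, adjusted p = 4.6e-19). In TPM, Hspa5 was at 947.12, 897.27, 767.57 and 1123.26 in parental A, parental B, B04 A and B04 B, so that its fold change was 0.01 on the log2(TPM + 1) scale and -0.04 with RSEM effective lengths as an offset, and its fall was seen on the count scale only. Hyou1, a nucleotide exchange factor of BiP, fell from 6932 and 7089 to 4828 and 5002 (log2 fold change -0.51, SE 0.057, adjusted p = 4.07e-17) and in TPM was at 98.58, 97.17, 69.56 and 74.23 in the same order. Calr, calreticulin, fell from 14322 and 13685 to 10489.5 and 10695 (log2 fold change -0.40, SE 0.054, adjusted p = 3.43e-12). Hsp90b1, or GRP94, fell by 0.32 and the sensor Atf6 by 0.47 on the log2 scale, and the sensor Ern1 by 0.35. Xbp1, the target of Ern1, was at 1347 and 1452 against 1172 and 1215 and did not pass the test (adjusted p = 0.054).

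The endoplasmic reticulum stress element (ERSE), searched on both strands as CCAAT, any 9 bases and then CCACG, was held by 9 of the 30 promoter windows found for this list (30%) and by 37 of 27025 genes with a window (0.14%). Of 15 called genes with a window 6 (40%) held it: Calr, Canx, Dnajc3, Hsp90b1, Hspa5 and Pdia6, of which Canx and Dnajc3 lost their calls without B04 replicate B. The element includes a CCAAT box. Stretches of 4 of them, written as above, are printed because the element was rare among all promoters. Capitals mark its outer bases, and reverse-strand matches read CGTGG and then ATTGG. On the log2 scale Pdia6 fell by 0.27 in counts (log2 fold change -0.27, SE 0.057, adjusted p = 4.33e-05) and was at 0.00 by limma on log2(TPM + 1).
Hspa5 (chr2:34772005-34772063, plus strand): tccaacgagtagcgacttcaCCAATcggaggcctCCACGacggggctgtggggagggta
Calr (chr8:84847055-84847113, minus strand): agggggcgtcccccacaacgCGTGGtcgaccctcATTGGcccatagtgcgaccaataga
Hsp90b1 (chr10:86705513-86705571, minus strand): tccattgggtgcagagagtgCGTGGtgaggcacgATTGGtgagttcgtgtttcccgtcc
Pdia6 (chr12:17266471-17266529, plus strand): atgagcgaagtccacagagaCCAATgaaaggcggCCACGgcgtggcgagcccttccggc

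Lysosomal genes were also more often lower, with 24 of 63 called lower and 3 higher and a median of -0.18. The median was -0.05 by limma on log2(TPM + 1), with 15 lower and 2 higher, and 19 to 21 were called lower without single libraries. Besides Igf2r, the membrane protein Cd63 fell from 14147 and 14702 to 9831 and 10166 (log2 fold change -0.53, SE 0.059, adjusted p = 2.46e-17), and the proton pump subunit Atp6v1h from 1834 and 1853 to 1048 and 1146 (log2 fold change -0.75, SE 0.092, adjusted p = 2.06e-14). Acid hydrolases and their helpers fell by smaller amounts, with Asah1, acid ceramidase, at -0.54 ± 0.070, Psap, the saposin precursor, at -0.37 ± 0.055 and Gla, alpha-galactosidase, at -0.38 ± 0.11, and Gla lost its call without B04 replicate B. The cathepsin Ctsd (0.01 ± 0.063) did not pass the test. Tfeb, the transcription factor of lysosomal genes, was higher, at 216 and 238 against 375 and 431 (log2 fold change 0.82, SE 0.18, adjusted p = 6.39e-05).

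The E-box of the CLEAR element, TCACGTGA, was in 9 of 59 windows of this list (15.3%), in 4 of 20 windows of called genes (20%) and in 1.12% of all genes. Stretches of 3 called genes are printed with it in capitals, since E-boxes of this kind are the sites named for TFEB. Atp6v1a, a subunit of the proton pump, fell by 0.33 in counts (log2 fold change -0.33, SE 0.068, adjusted p = 1.89e-05) and had a log2 fold change of -0.15 that was not called by limma on log2(TPM + 1).
Igf2r (chr17:12769707-12769734, minus strand): cgggggcgggccgactcaggTCACGTGA
Atp6v1a (chr16:44139364-44139411, minus strand): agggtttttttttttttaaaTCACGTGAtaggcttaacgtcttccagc
Gla (chrX:134601173-134601220, minus strand): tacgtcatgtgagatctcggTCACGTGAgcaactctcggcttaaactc

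Cytosolic proteostasis genes depended on the scale too. The median of all genes tested was itself 0.063 by limma on log2(TPM + 1), against 0.002 by DESeq2. Of 48 proteasome subunits 17 were called lower and 5 higher with a median of -0.12 (5 to 18 and 2 to 3 without single libraries), against 3 lower and 4 higher with a median of -0.05 by limma on log2(TPM + 1). Psmc2, an ATPase of the cap, fell from 5316 and 5693 to 3976 and 3938 (log2 fold change -0.48, SE 0.062, adjusted p = 9.54e-13). The immunoproteasome subunits Psmb8 and Psmb9, known interferon targets, rose from 216 and 205 to 534 and 567 (log2 fold change 1.39, SE 0.16, adjusted p = 1.22e-16) and from 119 and 96.3 to 268 and 309 (log2 fold change 1.42, SE 0.22, adjusted p = 5.79e-09). Of 37 heat shock proteins 15 were called lower and 5 higher (8 to 12 and 3 to 5 without single libraries), with a median of -0.05 that turned to 0.03 on the log2(TPM + 1) scale. The subunit Cct3 of the TRiC chaperonin fell by 0.41, while the small heat shock protein Cryab rose from 226 and 252 to 591 and 622 (log2 fold change 1.34, SE 0.16, adjusted p = 2.29e-15). Translation initiation factors had 13 of 43 called lower and 2 higher with a median of -0.11, and 2 each way with a median of 0.0 by limma on log2(TPM + 1). Transfer RNA synthetases had 10 of 40 called lower and 4 higher (6 to 8 and 0 to 1 without single libraries) with a median of -0.05 that turned to 0.03.

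**Figure D3:**
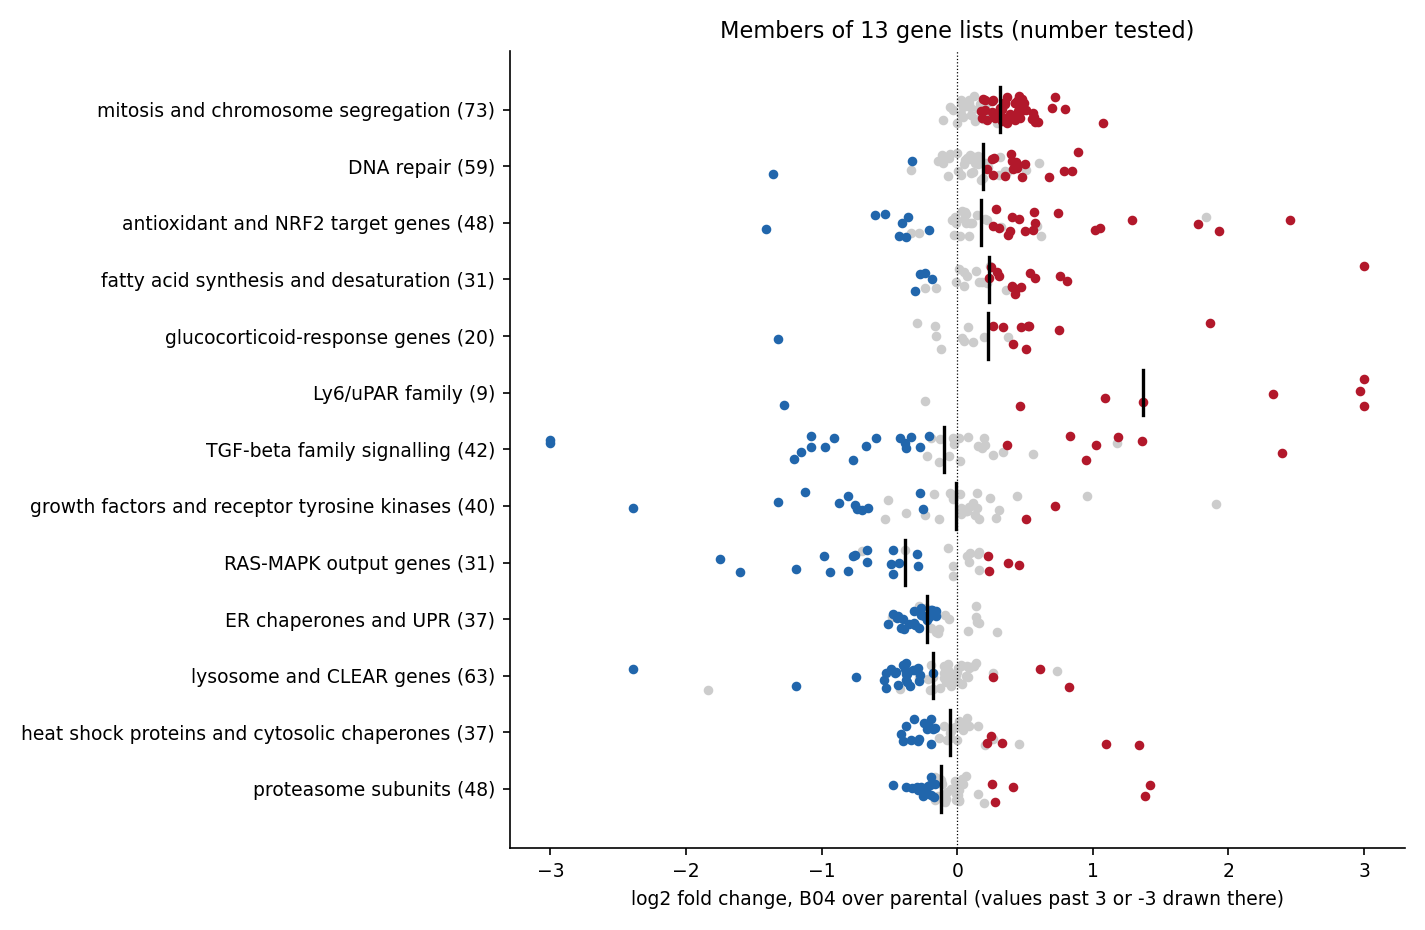
Log2 fold change (B04 over parental) of every tested member of 13 lists, 1 point per gene, with red points called higher, blue called lower and gray not called, black bars at the medians, and values past 3 or -3 drawn there. Mitosis genes lie almost wholly right of 0 (median 0.32) and endoplasmic reticulum chaperones left of it (median -0.22, -0.13 on the log2(TPM + 1) scale), whereas heat shock genes straddle 0 and their median changes sign between scales.

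Matrix and adhesion genes moved both ways within each group. Of 32 matrix proteases, inhibitors and crosslinkers, 8 were called higher and 12 lower (6 and 7 to 8 without single libraries), with a median of -0.20 that was 0.00 by limma on log2(TPM + 1). Mmp14, a membrane collagenase, fell from 2286 and 2253 to 1053 and 1081 (log2 fold change -1.09, SE 0.084, adjusted p = 1.03e-35), while Tgm2, a crosslinking transglutaminase, rose from 1336 and 1284 to 2784 and 2659.7 (log2 fold change 1.06, SE 0.077, adjusted p = 2.36e-40). Of 33 actin contractile genes 10 were called higher and 11 lower. Vim, the mesenchymal filament protein, rose from 50866 and 53799.6 to 81341 and 75476 (log2 fold change 0.58, SE 0.055, adjusted p = 4.33e-24), and of 7 keratins tested 3 were called higher (1 to 2 when single libraries were left out, with a list median of 0.24 without B04 replicate B against 1.02), all on chromosome 15 and among them Krt80, from 1113 and 1007 to 2204 and 2095 (log2 fold change 1.02, SE 0.089, adjusted p = 3.99e-28). Of 12 serpins 4 were called higher and 3 lower, with a median of 0.67 that was 0.43 on the log2(TPM + 1) scale. Among cell death genes Cflar, an inhibitor of caspase-8, fell from 3172 and 3117 to 1426 and 1417 (log2 fold change -1.15, SE 0.075, adjusted p = 1.76e-49), and Gsdmd, the pore-forming gasdermin D, rose from 438 and 409.6 to 920.3 and 998 (log2 fold change 1.18, SE 0.12, adjusted p = 5.1e-20). Of 36 genes of the p53 pathway 8 were called lower and 3 higher, and Mdm2, the negative regulator of p53, fell from 3867 and 3644 to 2378 and 2364 (log2 fold change -0.66, SE 0.069, adjusted p = 1.12e-19).

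Several lists were near or under the background of 24.1% called. Hypoxia genes (45.8% called) were above it, and Wnt genes (28.6%) were above it by little. Of 13 mitochondrially encoded genes 0 were called by DESeq2 or edgeR and 0 had an unadjusted p under 0.05 by DESeq2. Of 79 nuclear respiratory chain genes 11 were called higher and 9 lower, but 1 and 6 without B04 replicate B. Of 78 mitochondrial ribosome genes 4 were called higher and 11 lower, and 0 and 4 without that library. Splicing factors had 13 of 67 called, fatty acid oxidation genes 7 of 39, autophagy genes 7 of 40 and histone genes 3 of 33. Hypoxia genes were called in both directions, with 6 of 24 higher and 5 lower (3 to 4 and 4 when single libraries were left out). Among them Car9, a carbonic anhydrase of hypoxic cells, fell from 156 and 152 to 19.2 and 7.1 (log2 fold change -3.53, SE 0.40, adjusted p = 1.05e-16). Of 35 Wnt genes 5 were called in each direction (2 to 3 higher and 3 to 4 lower when single libraries were left out), and the nuclear effector Lef1 fell from 211 and 171 to 75.7 and 73.3 (log2 fold change -1.36, SE 0.28, adjusted p = 1.44e-05).

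Position on the chromosome went with direction for part of the genome. Of 476 protein-coding genes tested on chromosome 15, 33.4% were called higher and 4.4% lower, with a median of 0.19. The medians against the parental mean were 0.19 in B04 replicate A and 0.18 in replicate B. Of 561 genes on chromosome 3, 7.0% were called higher and 35.8% lower, with a median of -0.18, and on chromosome 1 11.2% and 26.6% of 653 genes, with a median of -0.12. On chromosomes 17 and 18 the medians were 0.09 and 0.10, and on the other chromosomes they were between -0.06 and 0.05. Both B04 libraries gave the same sign on chromosomes 1, 3, 15, 17 and 18.

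The shift was uneven along chromosomes 1, 3 and 15, where the cut positions were chosen after seeing the data. The 343 genes of chromosome 15 from 70 Mb on, where the Ly6 genes lie, had a median of 0.21, with 127 called higher and 9 lower, against 0.08 for the 133 genes before it. The 319 genes of chromosome 1 before 100 Mb had a median of -0.25, with 127 called lower and 17 higher, and the 334 after it had a median of 0.01. On chromosome 3 the 436 genes before 120 Mb had a median of -0.21, with 165 called lower and 29 higher, and the 125 after it a median of -0.04. DNA copy number was not measured in these libraries, so its part in these medians was not tested. Of the mitosis genes called higher, 3 lie on chromosome 15, and of the endoplasmic reticulum genes called lower, 1 lies on chromosome 1 and 2 on chromosome 3. Of the 5 Wnt genes called lower, 4 lie on chromosome 3, Lef1 among them.

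**Figure D4:**
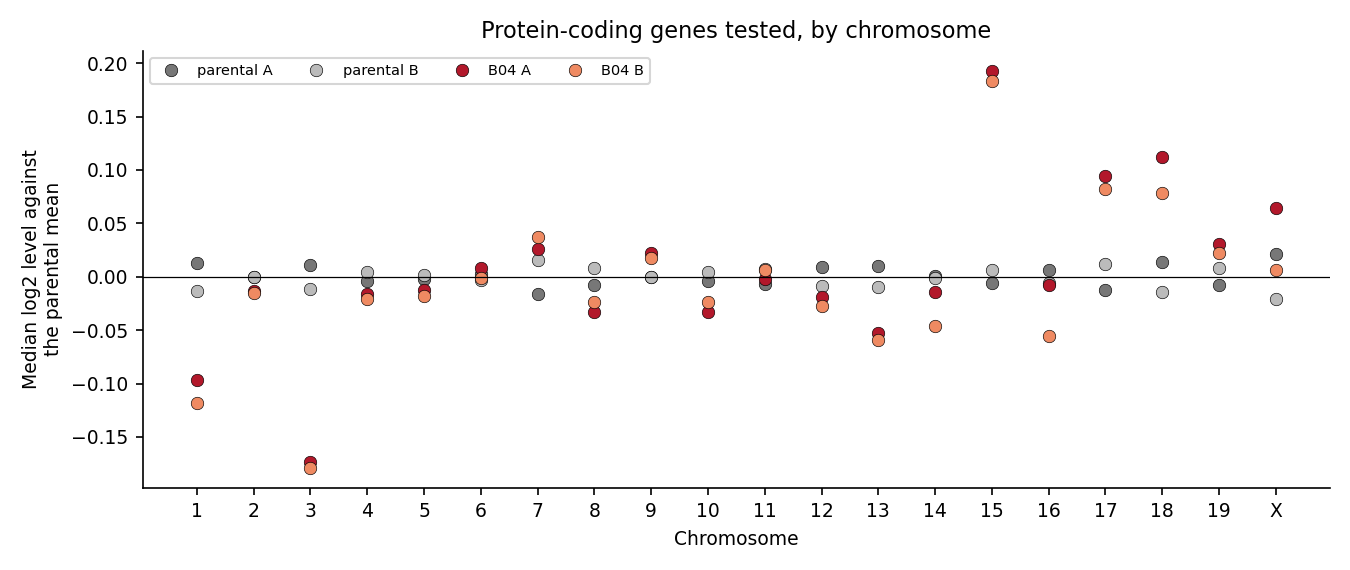
Median log2 level of protein-coding genes against the parental mean for each chromosome, with 1 point for each of the 4 libraries. On chromosome 15 both B04 libraries are high (0.19 and 0.18), and on chromosomes 1 and 3 both are low, while the parental points stay within 0.021 of 0.

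The B04 replicates were then compared with each other, since their fragment lengths differ. With 1 library on each side there is no test, and a gene was said to differ where the pair had a mean of at least 50 and a ratio of at least 2. This held for 52 of 10469 genes (0.497%), with 33 higher in replicate B and 19 higher in replicate A. The same rule found 19 of 10394 genes (0.183%) in the parental pair and 33 of 10476 (0.315%) in the pair of the other clone. Of the 52, 7 were among the genes called between B04 and the parental line. A DESeq2 fit with a term for fragment-length class, which in B04 compares 1 library with 1 library, called 12 of 20479 genes (0.0586%) for that term, 162 at an unadjusted p under 0.05, and 8 of the 12 were among the 52.

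The genes that differ were mostly members of near-identical families. Of the 52, 35 (67.31%) were pseudogenes, against 1.83% of all 10469 genes in the comparison, and 44 (84.62%) had another gene at least 95% identical over at least 80% of their length, against 3.42% of all. Summed over a gene and its copies, the ratio of replicate B to A was within 1.2-fold for 42 of these 44, with a median of 1.031. Of the 33 genes higher in replicate B, 20 were also higher in all 3 short-fragment libraries of the series than in all 3 long-fragment ones, and of the 19 higher in replicate A, 10 were lower in all 3 short-fragment libraries. The B04 libraries that set the choice are among those compared, so part of this outcome was fixed, and the share over all genes was not taken. The other short-fragment libraries are of the other clone and the other long-fragment ones parental. Line and fragment length therefore cannot be told apart here.

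The importin Kpna2, which carries proteins into the nucleus, has near-identical copies of this kind. Its processed pseudogene Gm10259 (chromosome 3) had a normalized count of 0 in replicate A and 1009 in replicate B, and 0 in both parental libraries. Gm10184 (chromosome 17), annotated as protein coding, had 2948 in replicate A and 652 in replicate B. Kpna2 itself had 4595 and 5774. The sum of the 3 genes was 7543 in replicate A and 7435 in replicate B, beside 7291 and 7530 in the parental libraries, so the sum was level where its members were not. Whether reads were divided otherwise among the copies was not tested. Over 1590 bases Gm10259 differs from Gm10184 at 1 base and from the open reading frame of Kpna2 at 3. The stretch around 1 of these bases is printed in transcript coordinates from GENCODE M21, with the differing base in capitals, to show how little separates the copies.
Gm10259 (bases 70 to 110): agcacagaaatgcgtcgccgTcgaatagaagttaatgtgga
Gm10184 (bases 203 to 243): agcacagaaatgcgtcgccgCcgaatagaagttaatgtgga
Kpna2 (open reading frame, bases 70 to 110): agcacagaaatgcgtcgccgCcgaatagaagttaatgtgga

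Rpl30, a ribosomal protein gene, and its pseudogene Rpl30-ps9 differ at 2 of 345 bases. Rpl30-ps9 (chromosome X) had 0 in replicate A and 397 in replicate B and 0 in the parental libraries, while Rpl30 had 11091 and 7225. The sum of both was 11091 in replicate A and 7622 in replicate B, so the gain of the pseudogene was far smaller than the drop of Rpl30. Over all 13 genes of this near-identical family, however, the sum was 16727 in replicate A and 15554 in replicate B, a ratio of 0.93. One of the differing bases is shown in the same way.
Rpl30-ps9 (bases 73 to 113): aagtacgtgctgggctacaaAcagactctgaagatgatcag
Rpl30 (open reading frame, bases 76 to 116): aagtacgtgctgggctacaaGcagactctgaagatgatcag

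Further large gaps were found in other families. Gm11518, identical to the ribosomal protein gene Rpl27 over 411 bases, had 578 in replicate A and 97.7 in replicate B. Gm5537, identical to the glycolytic gene Pgk1 over 1252 bases, had 192 and 0. Rn7s2, a copy of the 7SL RNA of the signal recognition particle, had 17.3 in replicate A and 1242 in replicate B, and with Rn7s1 summed to 2271 and 2484. The calls for Gm10259 and Rpl30-ps9 between B04 and the parental line rest on replicate B alone, since both had 0 counts in replicate A.

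No such copy was found for 8 of the 52 genes. mt-Atp8, a mitochondrial subunit of ATP synthase whose reading frame overlaps mt-Atp6, had 313 in replicate A and 1106 in replicate B while mt-Atp6 had 15312 and 14592. In TPM, mt-Atp8 was at 7559.51, 7109.3, 7507.9 and 7803.74 in parental A, parental B, B04 A and B04 B, so the libraries were alike on that scale. Fyb, an adaptor of hematopoietic cells, had 31.9 in replicate A and 123 in replicate B, beside 15.3 and 14.0 in the parental line. The remaining 6 were Nanp, a sialic acid phosphatase, and the predicted or unnamed genes Gm14296, Gm38312, Gm49325, C920009B18Rik and Gm7008. Some of these have matches that the length bound leaves out. Gm6741, also among the 52, is identical to Nanp over its own length, and their sum was 319 in replicate A and 316 in replicate B. Likewise 2210418O10Rik, also among the 52, is identical to Gm14296 over its own length, with a sum of 266 and 261. Gm49325 is identical to Sumo3 over 67.6% of its length. Short transcripts also moved more. Between the B04 replicates 66.7% of 72 genes under 500 bases were over 1.2-fold apart, against 19.8% of 440 genes from 500 to 1000 bases and 5.9% of 3975 genes of 4000 bases or more.

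**Figure D5:**
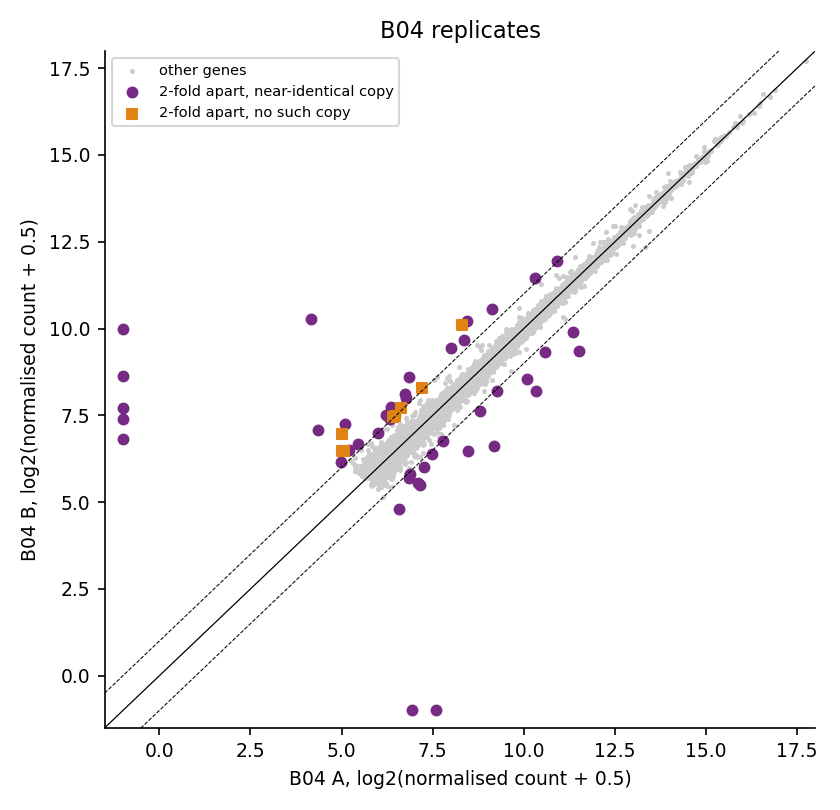
Normalized counts of B04 replicate A (horizontal) and replicate B (vertical) on log2(count + 0.5) axes, with 1 point per gene. Purple points mark the 44 genes at least 2-fold apart that have a near-identical copy over at least 80% of their length. Orange squares mark the 8 that have none by this bound, while the rest of the 10469 genes lie along the diagonal.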

How the data were processed

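RNA was extracted with Qiagen miRNeasy columns, selected with oligo(dT) and sequenced as paired reads. The authors aligned reads to mm10 with STAR and quantified genes with RSEM, as the study's methods and the submitters' processing notes give. Per gene, the deposited tables hold an expected count, a fractional estimate in which RSEM shares out reads with more than one match. The authors' tables also hold TPM, scaled by effective length and to a common library total, and the deposited FPKM was left aside. The sources used here do not state the annotation release. Symbols and coordinates are from GENCODE M21 (GRCm38) and promoter windows from RefSeq (GRCm38.p6).

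Expected counts were rounded and fitted with DESeq2 (version 1.42.0, R 4.3.3), the study's tool, over all 6 libraries with the group as the only term. The threshold was an adjusted p (Benjamini-Hochberg) under 0.05 with no minimum fold. Alternatives used edgeR (4.0.16), limma (3.58.1) on log2(TPM + 1), TMM factors, effective-length offsets, other count filters, the replicate letter or the fragment-length class as a term, and single libraries left out. On simulated counts with 200 changed genes among 14511, DESeq2 found 86 of 100 log2 changes of 1 and 46 of 100 of 0.5, and 7% of 142 calls were false. The changed genes were drawn from those with a mean of at least 50, and they were a far smaller share than the 24.1% called here. Fragment length and shared reads were not simulated, so these rates may not carry over to all genes tested.

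The gene lists and compared lines were chosen with earlier results of these data known. Named genes were the 15 largest rises and falls among called protein-coding genes with a mean count of at least 100 and no overlap, up to 3 members per list by adjusted p, the 12 largest gaps between B04 replicates, and genes the study names. Copies were found by aligning transcripts to each other. Folds against a line with at most 3 counts in each library are lower bounds, and these floors cover counting error only. Strand was not used, so overlapping and antisense genes cannot be told apart. Values of a few list members are not reported here.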

Additional observations from a re-analysis of the deposited data

How the results depend on the processing

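Both parental libraries have long fragments and both libraries of the other clone short ones. A term for fragment-length class therefore leaves B04 replicate A alone against the parental pair, as does leaving out B04 replicate B. In each of these fits Esm1 was at -3.09 and Hmga2 at -1.65 on the log2 scale, so they are not separate checks. The numbers of genes called in B04 against the parental line moved as follows. With the fragment-length class as a term, 1596 genes were called, 748 higher and 848 lower, 299 of them at least 2-fold apart. Limma on log2(TPM + 1) called 1964 genes, 1324 higher and 640 lower, with 250 at least 2-fold apart, and the median log2 fold change of all genes was 0.063 there against 0.002. When single libraries were left out, 1755 to 2019 genes were called, 797 to 939 higher and 958 to 1080 lower, and 313 to 347 were at least 2-fold apart. The count of all called genes fell by over 1.5 times for each of the 4 libraries. With TMM factors, edgeR, effective-length offsets, other count filters or the 4 libraries alone, all these counts stayed within 1.5 times. With the replicate block 2655 genes were called, 1217 higher and 1438 lower. Same-lettered libraries of both lines deviated together with a correlation of 0.134 across 11984 genes, over 2 pairs, so the letter is not shown to pair samples. Under the replicate block Elovl7 (adjusted p = 0.152), Pak3 (adjusted p = 0.202) and Pax3 (adjusted p = 0.237) were not called. The number of genes that differ between the B04 replicates was 20 with a minimum mean of 200, 143 at a ratio of 1.5, 14 at a ratio of 4 and 70 in TPM.

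Directions were reversed for a few genes, all but Hspa5 being among those that differ between the B04 replicates. Hspa5 had a log2 fold change of 0.01 by limma on log2(TPM + 1). Gm10259 and Rpl30-ps9 had 0 counts in B04 replicate A and in both parental libraries. Their -0.05 with the fragment-length class as a term therefore holds no direction. Cbx3-ps7 had -5.29 with that term, from 0 in B04 replicate A against 0 and 13.1 in the parental line. The other values with it were -0.088 for Gm12481 and -0.24 for Gm13337. Without B04 replicate B they were -0.088 for Gm12481 and -0.24 for Gm13337, and with effective-length offsets -0.012 for mt-Atp8. Over single left-out libraries Rn7s2 ran from -5.83 to 0.33 and Gm12481 from -0.088 to 1.67. Of 195 calls for genes chosen by the rule, 22 of 194 kept their direction but lost the call by limma on log2(TPM + 1), 9 without B04 replicate B, 7 with effective-length offsets, 7 with the fragment-length class and 2 with the replicate block. The reversed Hspa5 (limma) also lost its call, as did Gm10259 and Rpl30-ps9 (fragment-length class). The cause was not tested. With 2 libraries per line, small changes of low genes are not detectable at this depth.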

Other observations

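Long noncoding RNAs were also among the abundant genes that changed. AU020206 was at 891 and 1016 in the parental line and 2158 and 2029.6 in B04 (log2 fold change 1.14, SE 0.098, adjusted p = 1.37e-28), so both B04 libraries lay above both parental libraries. 4930461G14Rik went from 209.9 and 242 to 442 and 519 (log2 fold change 1.09, SE 0.17, adjusted p = 2.09e-09). Mirt1 went the other way, from 82.0 and 77.6 to 40.1 and 33.6 (log2 fold change -1.11, SE 0.36, adjusted p = 0.0116). These genes were chosen after their values were seen, and the counting is not stated to use strand.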
